A study of Homo sapiens with 12 samples.

Results

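The report describes 10 genes that respond to NF-kB in inflammation: the cytokine genes IL1B, IL1RN and TNF, the chemokine genes CXCL8, CXCL2, CCL2, CCL3 and CCL4, and the feedback inhibitor genes NFKBIA and TNFAIP3. They were chosen by name, and all 10 were found among the 20030 rows of the deposited expression table. Expression was measured by mRNA sequencing in 2 human cell lines of acute myeloid leukemia with rearranged MLL: MOLM-13, which has the FLT3/ITD mutation, and THP-1, which has wild-type FLT3. Each line was grown with DMSO (control) or with Jiyuan oridonin A (JOA), a diterpenoid related to oridonin, for 48 h, at 0.5 µM for MOLM-13 and 2 µM for THP-1, with 3 libraries in each of the 4 groups. Because dose and line differed together, a difference in response between the lines cannot be told apart from a difference in dose. Each line stands for the leukemia of 1 patient, and both groups of a line came from that line.

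NF-kB is a family of transcription factors that is held in the cytoplasm by inhibitor proteins until signals from receptors of TNF, IL-1 or microbial products lead to degradation of the inhibitors. In monocytes it turns on inflammatory cytokines and chemokines, together with NFKBIA and TNFAIP3, whose products shut the signal off again. IL1B and TNF encode the cytokines interleukin-1 beta and TNF, which themselves activate NF-kB, and IL1RN encodes the antagonist that blocks the interleukin-1 receptor. CXCL8 and CXCL2 encode chemokines that attract neutrophils, CCL2 encodes one that attracts monocytes, and CCL3 and CCL4 encode the macrophage inflammatory proteins, which attract monocytes and T cells.

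The promoter sequences of 5 of the genes are shown with their matches to a consensus of the DNA element to which NF-kB binds. A sequence that departs from the consensus at any letter was not counted. A window without a match may therefore still hold a site that NF-kB binds. The 10-letter kappaB consensus was searched on both strands in the 250 bases before each RefSeq start (GRCh38.p14). Windows were found for 8 of the genes (not CCL2 or CCL4), some with several starts, 12 windows in all. A match was held by 3 of the 12, those of CXCL2, TNFAIP3 and NFKBIA, and by 9.96% of all 35116 windows. The 120 bases before the start are printed 5′ to 3′ on the strand of the gene, with the matches in capitals. The NFKBIA stretch lies at chr14:35404750-35404869 on the minus strand, with its match beginning 81 bases before the start. The TNFAIP3 stretch lies at chr6:137867139-137867258 on the plus strand, with matches beginning 67 and 55 bases before the start. The CXCL2 stretch lies at chr4:74099196-74099315 on the minus strand, and its 2 matches overlap in a run that begins 78 bases before the start. The TNF stretch lies at chr6:31575445-31575564 on the plus strand and the CCL3 stretch at chr17:36090144-36090263 on the minus strand. Neither has a match to these letters in the window. TNF and CCL3 were called lower in THP-1 than in MOLM-13, but so was TNFAIP3, which has 2 matches. IL1RN, called higher in THP-1, has no match in its windows. A link between matches and direction was not tested.
NFKBIA: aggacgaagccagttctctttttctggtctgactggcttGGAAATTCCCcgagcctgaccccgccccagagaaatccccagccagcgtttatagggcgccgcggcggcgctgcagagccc
TNFAIP3: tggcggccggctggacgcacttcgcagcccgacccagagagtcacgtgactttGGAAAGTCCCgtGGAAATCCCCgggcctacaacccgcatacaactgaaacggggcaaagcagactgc
CXCL2: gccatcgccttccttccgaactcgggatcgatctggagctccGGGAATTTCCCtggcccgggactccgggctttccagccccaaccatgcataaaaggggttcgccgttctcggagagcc
TNF: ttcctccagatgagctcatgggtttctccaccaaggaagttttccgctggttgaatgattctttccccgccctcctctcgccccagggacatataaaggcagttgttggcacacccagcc
CCL3: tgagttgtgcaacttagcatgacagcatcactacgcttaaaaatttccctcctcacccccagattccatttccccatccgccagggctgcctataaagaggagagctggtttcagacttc

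By the same annotation, all 10 are protein-coding genes. IL1B (chr2:112829751-112836779) and IL1RN (chr2:113099360-113134014) lie 262.6 kb apart. CXCL8 (chr4:73740569-73743716) and CXCL2 (chr4:74097040-74099195) lie 353.3 kb apart. CCL2 (chr17:34255285-34257203) is on the same chromosome as CCL3 (chr17:36088256-36090143) and CCL4 (chr17:36103827-36105614), and 13.7 kb separate CCL3 from CCL4. TNF (chr6:31575565-31578336), TNFAIP3 (chr6:137866349-137883312) and NFKBIA (chr14:35401513-35404749) complete the set.

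Values are FPKM, fragments scaled by transcript length and by the number of mapped fragments, as the authors deposited them. Between 13763 and 14888 genes were above 0 in a library, and the depth of the libraries, which FPKM does not give, was estimated from the spacing of low values to lie within 0.863 to 1.03 times that of MOLM-13 control 1. Of 16 genes listed as monocytic markers, 14 had a mean of at least 1 FPKM in every group. LYZ, which encodes lysozyme, was the highest in each. CD14 was below 1 FPKM, at means of 0.144 and 0.165 FPKM in MOLM-13 control and JOA cells and 0.548 and 0.645 FPKM in THP-1. The list also holds MPO and ELANE, which encode granule enzymes. The summed levels of the T cell, B cell, erythroid and megakaryocyte markers reached at most 3.80 FPKM in any library, and CD3D in MOLM-13 control cells (2.83 FPKM on average) and GP9 in THP-1 JOA cells (1.42 FPKM) were the highest of these. The labels do not say that the 3 libraries of a group came from separate cultures, so p-values measure only the spread between these libraries, which may be technical. For a single gene, an exact permutation test of 3 against 3 libraries cannot go below p = 0.1 (two-sided). The tests below were therefore fitted by limma across all genes on log2(FPKM + 0.1), a scale that understates the change of low genes. A call needed an adjusted p (Benjamini-Hochberg) below 0.05 and a log2 fold change of 0.58 or more in size.

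The 10 genes spanned the range from clearly expressed to nearly silent, and the order differed between the lines. In MOLM-13 control cells TNF was the highest at 20.5 ± 3.79 FPKM (SD, n = 3), above 83.5% of the genes detected there. NFKBIA followed at 10.8 ± 0.864 FPKM. TNFAIP3 at 6.11 ± 2.13 FPKM, IL1RN at 5.25 ± 0.712 FPKM and CCL3 at 4.78 ± 3.83 FPKM came next and did not differ beyond their spread. CXCL8 at 1.54 ± 0.142 FPKM, CCL2 at 1.11 ± 0.861 FPKM and CCL4 at 0.636 ± 0.787 FPKM also overlapped, and IL1B at 0.437 ± 0.195 FPKM and CXCL2 at 0.169 ± 0.112 FPKM were the lowest. In THP-1 control cells NFKBIA led at 17.5 ± 0.886 FPKM, above 82% of the genes detected, followed by IL1RN at 8.95 ± 1.86 FPKM and TNF at 4.72 ± 1.33 FPKM. TNFAIP3 at 2.01 ± 0.389 FPKM came next. CXCL8 at 1.01 ± 0.518 FPKM, CCL3 at 0.934 ± 0.192 FPKM and IL1B at 0.684 ± 0.155 FPKM overlapped, as did CCL2 at 0.333 ± 0.259 FPKM and CXCL2 at 0.299 ± 0.0511 FPKM, and CCL4 at 0.0596 ± 0.103 FPKM was at the edge of detection.

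**Figure D1:**
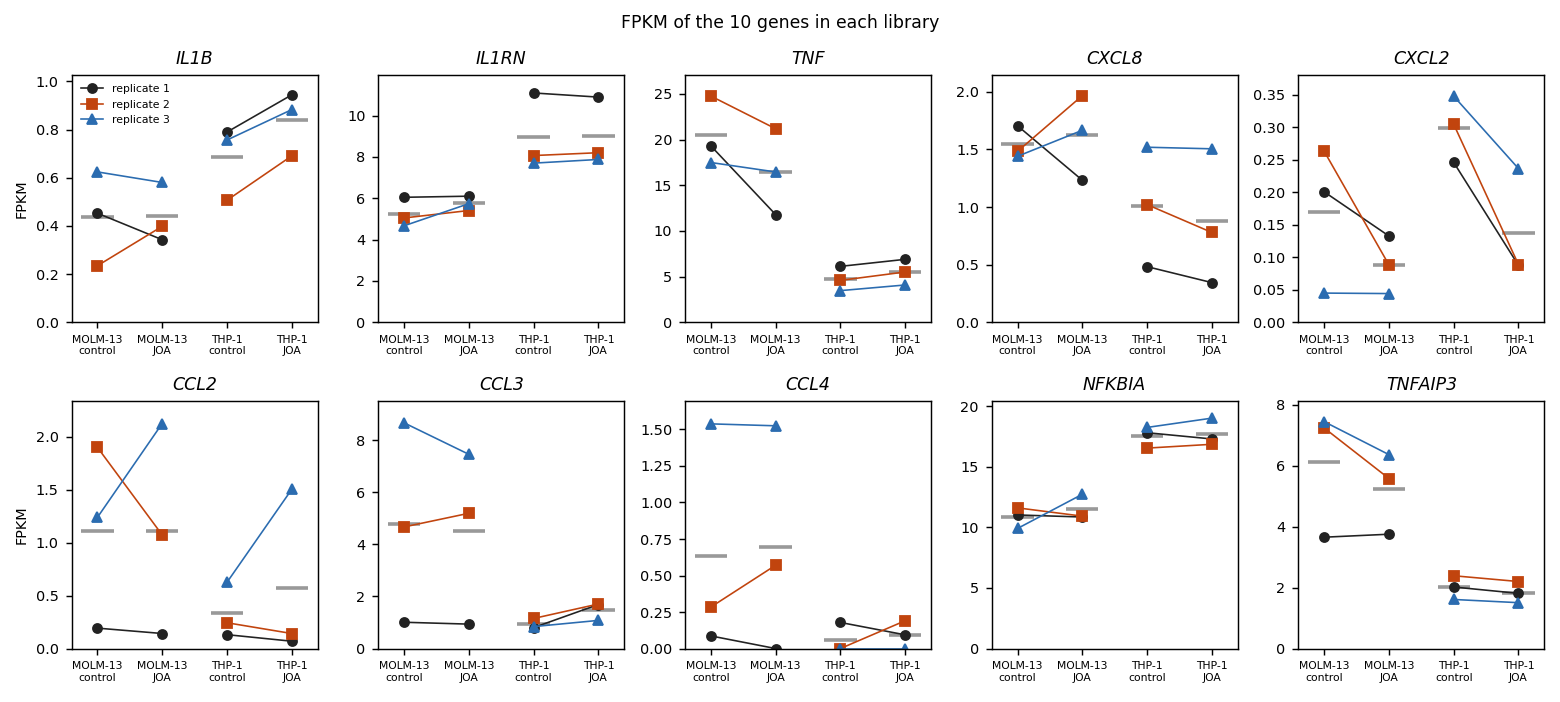
FPKM (y axis, from 0, scaled per gene) of the 10 genes in the 4 groups (x axis). Points are libraries, colored by replicate number, lines join control and JOA libraries of the same number within a line, and grey bars are group means of n = 3. TNF and TNFAIP3 sit higher in MOLM-13 and NFKBIA and IL1RN higher in THP-1, whereas control and JOA overlap in every panel except CXCL2 in THP-1, where all 3 JOA libraries lie below the controls.

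The first question was whether JOA changed these genes. None of the 10 tested in MOLM-13 was called, and none of the 9 tested in THP-1, where CCL4 was under the filter of a mean of 0.1 FPKM. Among all genes, 0% of 11693 were called in MOLM-13 and 0.134% of 12712 (17 genes) in THP-1, so the count of 0 is near the background of each line. At an unadjusted p under 0.05, limma had 0 of the 10 genes in MOLM-13 (481, or 4.11%, of all genes) and 2 of 9, CCL3 and CXCL2, in THP-1 (2146, or 16.9%, of all genes). The median log2 fold change was -0.04 in MOLM-13 and 0.01 in THP-1 over the members tested, against 0.01 and 0.02 over all genes. Libraries of the same number deviated together within each line, so the fit was repeated with the replicate number as a block. With it, 1 member was called in THP-1 (CCL3; background 1.27% of genes, 161 in all) and 0 in MOLM-13 (background 0%). Control and JOA libraries did not overlap for 0 of the 10 genes in MOLM-13 (9.65% of all genes) and for 1 of 9 in THP-1, CXCL2 (23.4% of all genes).

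TNF was the cytokine with the largest JOA difference in MOLM-13. Its level was 19.3, 24.8 and 17.5 FPKM in the MOLM-13 control libraries 1, 2 and 3 and 11.8, 21.2 and 16.5 FPKM in the JOA libraries of the same numbers. The groups overlapped, but JOA was lower in 3 of 3 same-numbered pairs, at 0.610, 0.856 and 0.941 of the control, and the log2 fold change was -0.34 ± 0.20 (SE; adjusted p = 1, or 0.362 with the block). In THP-1 the control libraries had 6.12, 4.58 and 3.46 FPKM and the JOA libraries 6.89, 5.50 and 4.08 FPKM. These groups overlapped too, with JOA higher in 3 of 3 pairs, at 1.13, 1.20 and 1.18 times the control, and a log2 fold change of 0.22 ± 0.23 (SE; adjusted p = 0.683, or 0.0684 with the block). The difference between the lines in this response was 0.56 on the log2 scale (95% interval -0.21 to 1.33), with an adjusted p of 0.797, or 0.143 with the block.

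IL1B, the other agonist cytokine, was below 1 FPKM in all 12 libraries. In MOLM-13 it was 0.453, 0.235 and 0.624 FPKM in control and 0.343, 0.398 and 0.58 FPKM in JOA libraries, and the groups overlapped, with pairs moving in both directions (log2 fold change 0.05, adjusted p = 1). In THP-1 it was 0.790, 0.506 and 0.757 FPKM in control and 0.944, 0.691 and 0.883 FPKM in JOA libraries, higher in 3 of 3 pairs but with overlapping groups (log2 fold change 0.27 ± 0.19 SE, adjusted p = 0.518). IL1RN, whose product opposes interleukin-1, was about an order of magnitude more abundant. It had 6.05, 5.05 and 4.67 FPKM in MOLM-13 control and 6.10, 5.41 and 5.74 FPKM in MOLM-13 JOA libraries, a log2 fold change of 0.13 (95% interval -0.11 to 0.37). In THP-1 it had 11.1, 8.07 and 7.70 FPKM in control and 10.9, 8.20 and 7.88 FPKM in JOA libraries. The pairs in THP-1 lay almost on top of each other. The interval of the log2 fold change of 0.01 ran from -0.11 to 0.13 with the block. Without it, the interval ran from -0.37 to 0.39.

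Among the chemokines, CCL3 and CXCL2 moved most with JOA, in opposite directions and in THP-1. CCL3 was at 0.805, 1.16 and 0.842 FPKM in THP-1 control and 1.69, 1.71 and 1.08 FPKM in THP-1 JOA libraries. JOA was higher in 3 of 3 pairs, although JOA library 3 lay below control library 2, and the log2 fold change was 0.61 ± 0.20 (SE), with an adjusted p of 0.193 that became 0.0451 with the block. In MOLM-13 CCL3 was at 1.01, 4.67 and 8.66 FPKM in control and 0.937, 5.19 and 7.45 FPKM in JOA libraries. The replicates thus spanned a far wider range than the treatments. Its log2 fold change was -0.05, with a 95% interval of -2.05 to 1.94, or -0.26 to 0.15 with the block. The difference between the lines in the CCL3 response was 0.67 on the log2 scale, with an adjusted p of 0.949, or 0.161 with the block.

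CXCL2 was close to the detection limit in every library. In THP-1 it was at 0.246, 0.304 and 0.347 FPKM in control and 0.0874, 0.0886 and 0.236 FPKM in JOA libraries. All 3 JOA libraries were lower than all 3 controls, with a log2 fold change of -0.80 ± 0.27 (SE) and an adjusted p of 0.200, or 0.0680 with the block. If the lowest value stands for 1 fragment, these levels correspond to 6, 8 and 8 fragments in control and 2, 2 and 6 in JOA libraries, estimates that strayed from whole numbers by up to 0.292. In MOLM-13 it was at 0.200, 0.263 and 0.0448 FPKM in control and 0.133, 0.0881 and 0.0441 FPKM in JOA libraries. JOA was lower in FPKM in 3 of 3 pairs there too, with overlapping groups. The log2 fold change was -0.44 (95% interval -1.32 to 0.44, adjusted p = 1). By the same reckoning these levels are 5, 6 and 1 fragments in control and 3, 2 and 1 in JOA libraries. Pair 3 thus rests on 1 fragment in each library and shows no change in fragments.

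CXCL8, CCL2 and CCL4 gave no call in either line. CXCL8 was at 1.71, 1.48 and 1.44 FPKM in MOLM-13 control and 1.23, 1.97 and 1.67 FPKM in MOLM-13 JOA libraries, with no common direction. In THP-1 it was at 0.483, 1.02 and 1.52 FPKM in control and 0.344, 0.779 and 1.51 FPKM in JOA libraries, lower in 3 of 3 pairs by a log2 fold change of -0.25 (adjusted p = 0.848, or 0.272 with the block). CCL2, the monocyte attractant, was at 0.193, 1.90 and 1.24 FPKM in MOLM-13 control and 0.142, 1.07 and 2.13 FPKM in MOLM-13 JOA libraries, and library 1 was the lowest of both groups. In THP-1 it was at 0.131, 0.244 and 0.625 FPKM in control and 0.0692, 0.142 and 1.5 FPKM in JOA libraries, and library 3 was the highest of both groups. Without the block, the log2 intervals for CCL2 were wide, from -2.14 to 1.94 in MOLM-13 and from -1.81 to 1.94 in THP-1. That fit could not have detected changes of up to several fold. With the block, the intervals ran from -0.71 to 0.51 in MOLM-13 and from -0.71 to 0.84 in THP-1. CCL4 was at 0.0865, 0.284 and 1.54 FPKM in MOLM-13 control and 0, 0.570 and 1.53 FPKM in MOLM-13 JOA libraries, with about 16 fragments behind the value of each library 3. In THP-1 CCL4 was at 0.179 FPKM in control library 1 and listed at 0 in the other controls, and was at 0.0939, 0.190 and 0 FPKM in JOA libraries, which is 2 fragments or fewer in each.

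Of the feedback inhibitors, NFKBIA was steady across libraries and TNFAIP3 was not. NFKBIA, which encodes the inhibitor IkB-alpha, was at 11.0, 11.6 and 9.91 FPKM in MOLM-13 control and 10.9, 10.9 and 12.7 FPKM in MOLM-13 JOA libraries. In THP-1 it was at 17.8, 16.5 and 18.2 FPKM in control and 17.3, 16.8 and 19.0 FPKM in JOA libraries. The 95% interval of its log2 fold change was -0.12 to 0.29 in MOLM-13 and -0.14 to 0.16 in THP-1, so in both lines it lay within the 0.58 used for a call. TNFAIP3, which encodes the ubiquitin-editing enzyme A20, was at 3.66, 7.24 and 7.45 FPKM in MOLM-13 control and 3.75, 5.58 and 6.37 FPKM in MOLM-13 JOA libraries (log2 fold change -0.19, adjusted p = 1, or 0.480 with the block). In THP-1 it was at 2.02, 2.39 and 1.61 FPKM in control and 1.81, 2.20 and 1.51 FPKM in JOA libraries, lower in 3 of 3 pairs by a log2 fold change of -0.12 (adjusted p = 0.782, or 0.414 with the block).

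**Figure D2:**
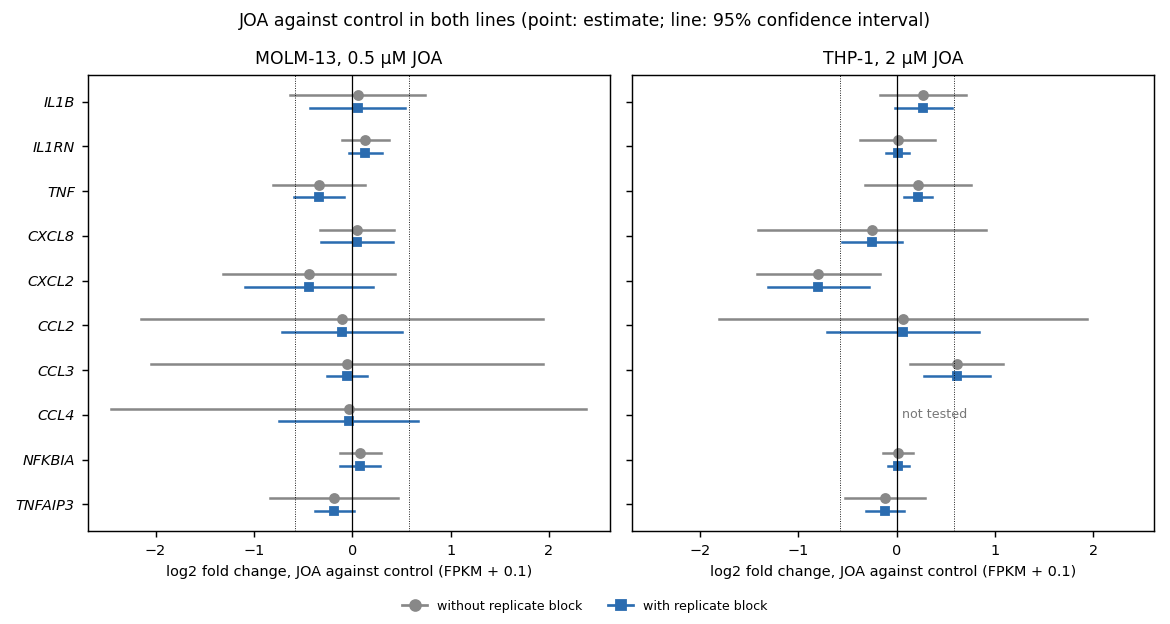
Log2 fold change of JOA against control on log2(FPKM + 0.1) (x axis) for each gene (y axis) in MOLM-13 (left) and THP-1 (right), with 95% confidence intervals without (grey circles) and with (blue squares) the replicate number as a block; dotted lines mark 0.58 in either direction. CCL3 in THP-1, at 0.61, is the only estimate whose adjusted p falls under 0.05 (0.0451), and only with the block.

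Counted by direction, 3 of the 10 genes moved one way in all 3 same-numbered pairs in MOLM-13 (TNF and CXCL2 lower, IL1RN higher). In THP-1, 6 of the 9 genes tested did (IL1B, TNF and CCL3 higher, CXCL8, CXCL2 and TNFAIP3 lower). Over all genes tested, 34.2% and 48.8% moved one way in all pairs. By FPKM, CXCL2 was the 1 gene of the set that moved the same way in every pair of both lines. Its MOLM-13 pair 3 had 1 fragment in each library, so there it did not change in fragments. TNF was the 1 gene that moved in opposite ways. The share of all genes that moved alike, or oppositely, in every pair of both lines was not counted. No member had an interaction of line and JOA that passed the threshold, with or without the block (background 0% and 0.0475% of 12626 genes). At an unadjusted p under 0.05 the interaction had 0 of the 10 genes by limma without the block (7.24% of all genes) and 2, TNF and CCL3, with it (14.9% of all genes).

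The lines differed in these genes far more than the treatments did. In untreated cells, 5 of the 10 genes were called, 2 higher in THP-1 and 3 lower, beside a background of 44% of 12635 genes called (25% higher in THP-1 and 19% lower), so the share of members is close to that of all genes. The groups did not overlap for 4 of the 10 genes, TNF, TNFAIP3, NFKBIA and IL1RN, against 74.8% of all genes. TNF was 4.35 times higher in MOLM-13 than in THP-1 (log2 difference -2.12 ± 0.20 SE for THP-1 minus MOLM-13, adjusted p = 3.04e-05). TNFAIP3 was 3.05 times higher in MOLM-13 (log2 difference -1.51 ± 0.27 SE, adjusted p = 0.00114). CCL3 was 5.12 times higher in MOLM-13 on the group means (log2 difference -1.81 ± 0.64 SE, adjusted p = 0.0324), yet its MOLM-13 library 1, at 1.01 FPKM, lay inside the THP-1 range. The CCL3 call did not hold without MOLM-13 control library 2 (adjusted p = 0.0900) or 3 (0.0952), or without any 1 of the THP-1 controls (0.0543 to 0.0828).

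In the other direction, NFKBIA was 1.62 times higher in THP-1 (log2 difference 0.69 ± 0.078 SE, adjusted p = 7.87e-05) and IL1RN was 1.70 times higher (log2 difference 0.75 ± 0.15 SE, adjusted p = 0.00241). In untreated cells the 2 feedback inhibitors thus stood in opposite order: TNFAIP3 was higher in MOLM-13 and NFKBIA in THP-1. TNF and IL1RN, whose product opposes interleukin-1 and not TNF, also differed in opposite directions. The remaining 5 genes were not called: CCL4 (log2 difference -1.80, adjusted p = 0.0608), CCL2 (-1.26, 0.139), CXCL8 (-0.69, 0.0896), CXCL2 (0.66, 0.104) and IL1B (0.60, 0.0966). Without MOLM-13 control library 1, CCL2 and CCL4 passed the threshold, at log2 differences of -2.08 (adjusted p = 0.00492) and -2.49 (0.0136). The others also passed with 1 library left out: CXCL2 without MOLM-13 control 2 (0.93, adjusted p = 0.0382), IL1B without MOLM-13 control 3 (0.85, 0.0294) and CXCL8 without THP-1 control 3 (-1.02, 0.0127). CCL4 passed without THP-1 control 1 too (-2.29, 0.0380). The estimate for CCL4, which was listed at 0 in 2 of the 3 THP-1 controls, depended on the scale and ran from -0.53 with a pseudocount of 1 to -3.73 with 0.01. Other ways of scaling the libraries moved the median of all genes in this comparison from 0.06 up to 0.18 on the log2 scale, and the 5 called genes kept their directions under each scaling.

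**Figure D3:**
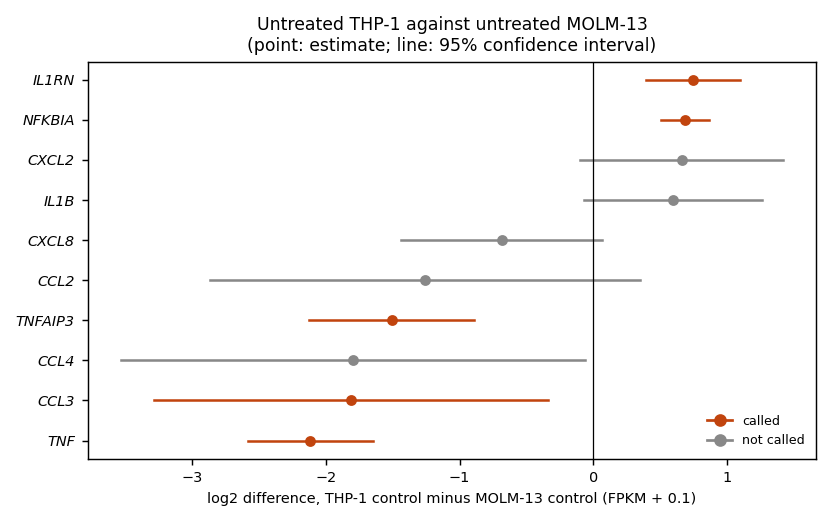
Log2 difference between untreated THP-1 and untreated MOLM-13 cells on log2(FPKM + 0.1) (x axis; positive is higher in THP-1) for each gene (y axis), as estimates with 95% confidence intervals from 3 libraries a line. The called genes are TNF (-2.12), CCL3 (-1.81) and TNFAIP3 (-1.51), lower in THP-1, and NFKBIA (0.69) and IL1RN (0.75), higher in THP-1.

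Replicate number, rather than JOA, went with the largest differences within a line. In MOLM-13, library 1 had the lowest CCL3, CCL2, CCL4 and TNFAIP3 of both the control group and the JOA group. CCL3 was 1.01 and 0.937 FPKM in the control and JOA libraries numbered 1, against 4.67 to 8.66 FPKM in the other 4. CCL4 was 0.0865 and 0 FPKM against 0.284 to 1.54 FPKM, CCL2 was 0.193 and 0.142 FPKM against 1.07 to 2.13 FPKM, and TNFAIP3 was 3.66 and 3.75 FPKM against 5.58 to 7.45 FPKM. After this was seen, the replicate number was tested beside the treatment with a limma F test across all genes, so the test is not independent of the pattern that prompted it. It passed an adjusted p of 0.05 for 4 of the 10 genes, against 4.54% of the 11693 genes tested. CCL3 had the second smallest p of all genes (rank 2, adjusted p = 0.000192, log2 difference of number 3 from number 1 of 2.92). CCL4 (rank 63, adjusted p = 0.0128, log2 difference 3.58), CCL2 (rank 70, adjusted p = 0.0132, log2 difference 2.70) and TNFAIP3 (rank 80, adjusted p = 0.0140, log2 difference 0.88) followed.

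The other members did not share this pattern in MOLM-13. NFKBIA (adjusted p = 0.945) and CXCL8 (0.698) had near-equal levels under all 3 numbers, and TNF (0.0761), IL1B (0.178), CXCL2 (0.204) and IL1RN (0.212) missed the threshold. The near-identical copy CCL3L3 (chr17:36194869-36196758), which can share reads with CCL3, was also lowest in the libraries numbered 1, at 1.23 and 0.364 FPKM against 3.89 to 7.52 FPKM in the others (adjusted p = 0.00372). How reads shared by CCL3 and CCL3L3, or by CCL4 and its copy CCL4L2, were treated is not given in the sources used here, so the levels of each single copy are uncertain. Of the 15 monocytic markers tested in MOLM-13, 2 passed and the others missed the threshold. Those 2, LYZ (3106 and 3292 FPKM under number 1, 1873 to 2727 FPKM in the others, adjusted p = 0.0370) and ELANE, a neutrophil granule protease gene (353 and 446 FPKM under number 1, 284 to 353 FPKM in the others, adjusted p = 0.0389), were higher under number 1. Their part in the result was not tested. The labels give the number no meaning beyond the replicate, so a culture, a day and a library preparation cannot be told apart.

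In THP-1, replicate number went with other members, and in both directions. By the same test 4 of the 9 genes passed, against 3.26% of 12712 genes. TNF (adjusted p = 0.00809) and IL1RN (adjusted p = 0.0140) were highest under number 1 and lowest under number 3 in control and JOA cells alike, with log2 differences of number 3 from number 1 of -0.77 and -0.49. CXCL8 (adjusted p = 0.00810) and CCL2 (adjusted p = 0.0405) ran the other way, with log2 differences of 1.66 and 2.45. CCL3, TNFAIP3, NFKBIA, IL1B and CXCL2 missed the threshold, at adjusted p from 0.0721 to 0.367. Of the 15 monocytic markers tested in THP-1, 3 passed and the others missed the threshold. LYZ (755 and 791 FPKM under number 1, 1354 and 1086 FPKM under number 3, adjusted p = 0.0305) and CD14, the lipopolysaccharide co-receptor of monocytes (0.202 and 0.369 FPKM, against 0.840 and 0.978 FPKM, adjusted p = 0.0297), were higher under number 3. MPO, which encodes the granule enzyme myeloperoxidase, was lower under number 3 (28.3 and 18.5 FPKM against 13.2 and 7.68 FPKM, adjusted p = 0.00233). The part of these markers in the result was not tested. The F test depended on how the spread was modeled: without a trend of variance on level, 1 gene of the set in MOLM-13 and 0 in THP-1 passed, of 5 and 0 genes in all. With every gene above 0 in any library tested, 0 passed in either line, among members or all genes. In MOLM-13, 2 members in place of 4 passed without control library 3 or without JOA library 3, and in THP-1 2 passed with a filter at a mean of 1 FPKM.

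**Figure D4:**
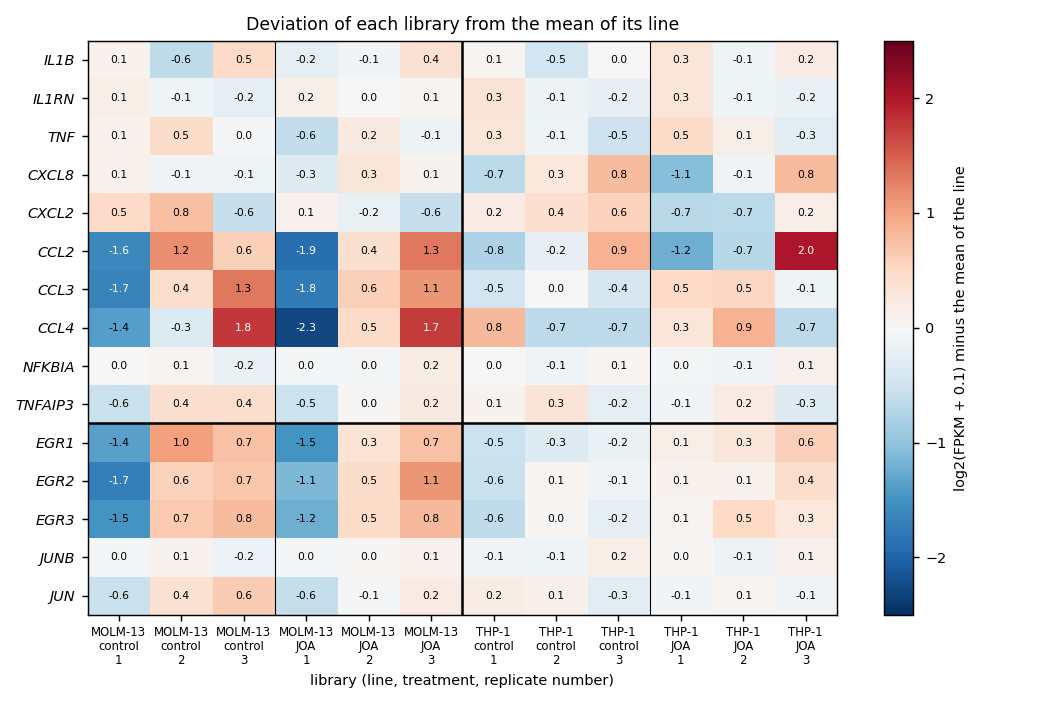
Log2(FPKM + 0.1) of each library minus the mean of its line, for the 10 genes (upper rows) and 5 genes named as nearest in pattern to some of them (lower rows); columns are libraries, red is above and blue below the line mean. In MOLM-13 the columns numbered 1 are blue for CCL2, CCL3, CCL4 and TNFAIP3 in control and JOA alike, as they are for EGR1, EGR2, EGR3 and JUN, while NFKBIA and JUNB stay within 0.2 of the mean in all columns.

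For the 9 members that passed the filter in both lines, the 2 genes nearest in pattern were found among 11354 genes by the root mean square difference of log2 values, each centered on its line, over the 12 libraries. For CCL3 they were EGR3 (0.304) and EGR2 (0.363), and for CCL2 they were EGR1 (0.743) and EGR2 (0.758), all 3 zinc finger transcription factors of the immediate early response. For TNFAIP3 the nearest was JUN (0.125) and then RAB6B (0.148), and for NFKBIA it was JUNB (0.0531) and then CLK3 (0.0607). The smallest distances for CCL2, NFKBIA, IL1B and CXCL2 were large beside their own spreads of 1.20, 0.0903, 0.320 and 0.501. No gene followed these members closely. EGR1 was at 0.426, 2.66 and 2.16 FPKM in MOLM-13 control and 0.382, 1.61 and 2.16 FPKM in MOLM-13 JOA libraries, so it too was lowest under number 1 (adjusted p = 0.00395 by the test of replicate number). EGR3 was at 0.00918, 0.387 and 0.436 FPKM in MOLM-13 control and 0.0315, 0.321 and 0.441 FPKM in JOA libraries, again lowest under number 1 (adjusted p = 0.0140). For CXCL8 the nearest genes were C3 (0.177) and SMOX (0.229), for TNF they were TUBB3 (0.162) and ZEB1 (0.167), and for IL1RN they were LRP3 (0.0841) and ATF5 (0.0842). IL1B was nearest to LRRC3 (0.205) and STAP1 (0.209), and CXCL2 to LOC105370295 (0.317) and PHPT1 (0.332). Genes were ranked by these values on the same 12 libraries, and the distances carry no test.

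The wider pathway was read from 9 lists holding 175 other genes, of which 173 were in the table. In MOLM-13, 0 of the 134 tested were called with JOA, with or without the block. Of these, 82 were higher and 52 lower, with a median log2 fold change of 0.05, against 0.01 over all genes. In THP-1, 0 of 138 were called without the block, with 85 higher and 53 lower. The median was 0.05, against 0.02 over all genes. With the block, a share near the background of 1.27% of 12712 genes (161 in all) was called, 2 of the 138. These were BCL2A1, an anti-apoptotic gene that NF-kB induces, at 0.590 ± 0.120 FPKM in control and 1.24 ± 0.531 FPKM in JOA cells (SD, n = 3; log2 fold change 0.91, adjusted p = 0.153, or 0.0287 with the block), and IL12A, a subunit of interleukin-12, at 0.654 ± 0.147 and 0.273 ± 0.0807 FPKM (log2 fold change -1.02, adjusted p = 0.0877, or 0.0353 with the block). PLAUR, the urokinase receptor, had an adjusted p of 0.0459 without the block and 0.00697 with it. Its log2 fold change of 0.57 was just under the size needed. TIRAP, an adapter of Toll-like receptors, had a log2 fold change of 0.54 (adjusted p = 0.0636, or 0.0180 with the block), also under that size. The copy CCL3L3 was higher in all THP-1 JOA libraries (3.20 ± 0.338 FPKM) than in all controls (2.44 ± 0.157 FPKM, SD, n = 3). Its log2 fold change of 0.37 (adjusted p = 0.132, or 0.0463 with the block) was under that size too. Groups did not overlap for 23.4% of all genes in THP-1.

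By role, the 5 NF-kB subunits had median log2 fold changes of 0.09 in MOLM-13 and -0.08 in THP-1, with 0 called. NFKB1, which encodes the p50 subunit, was at 10.7 ± 0.0566 FPKM in MOLM-13 control and 9.88 ± 0.398 FPKM in JOA cells, and at 10.8 ± 0.103 and 9.87 ± 0.103 FPKM in THP-1 (SD, n = 3). Its groups did not overlap in either line, but its log2 fold changes of -0.11 and -0.12 missed the threshold (adjusted p = 1 and 0.256). Such genes were named because their groups did not overlap, which held for 9.65% of all genes in MOLM-13 and 23.4% in THP-1. The share of genes without overlap in both lines was not counted. The 16 other NF-kB inhibitors tested in each line included 11 with a higher estimate in MOLM-13 and 14 in THP-1, none called. Their medians were 0.04 and 0.06, against 0.01 and 0.02 over all genes. The share of all genes with a higher estimate was not counted. COMMD1 (0.22) and OTULIN (0.14) had the largest non-overlapping log2 differences in THP-1. Of the kinases and adapters upstream, 31 were tested in MOLM-13 and 35 in THP-1, with medians of 0.02 and 0.01, and 0 called. Among other cytokines, 14 were tested in each line, with LTA (-0.53) and TNFSF13 (0.27) apart in MOLM-13 and TNFSF13B (-0.26) in THP-1, all missing the threshold. Among other chemokines, 8 were tested in each line, and CXCL11 in MOLM-13 (-0.69, adjusted p = 1) did not overlap between groups.

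The receptors of the member ligands (7 tested in MOLM-13 and 8 in THP-1) had medians of 0.11 and 0.06, with CXCR2, a receptor for CXCL8 and CXCL2, at a log2 fold change of 0.15 in MOLM-13. The genes of interleukin-1 processing and TNF shedding (13 and 11 tested) had medians of 0.09 and 0.16. MEFV, which encodes the inflammasome protein pyrin, was named by non-overlap in both lines (9.65% and 23.4% of all genes). Its log2 fold change was 0.42 in MOLM-13 (adjusted p = 1) and 0.31 in THP-1 (adjusted p = 0.194). NLRC4 in MOLM-13 (0.49) and ADAM17, the protease that releases TNF from the cell surface, in THP-1 (0.27, adjusted p = 0.196) were the others named by the rule. The other NF-kB target genes (29 and 30 tested) had medians of 0.09 and 0.18, with PLAU (0.19) and XIAP (0.12) apart in MOLM-13. The genes of mRNA decay of cytokine transcripts (11 tested in each line) had medians of -0.05 and -0.02, with ZC3H12A (0.21, adjusted p = 0.315) apart in THP-1.

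Between the untreated lines, 23 of 137 pathway genes were higher in THP-1 (16.8%) and 29 lower (21.2%), against 25% and 19% of all genes. Replicate number passed the F test for 11 of 134 pathway genes in MOLM-13 (8.21%, against 4.54% of all genes). In the fit over control and JOA libraries together, 8 of them were lowest under number 1, though not every one in each group. Besides CCL3L3 these 8 included ICAM1, an adhesion molecule induced by NF-kB, at 1.33, 3.58 and 3.46 FPKM in control and 1.85, 2.84 and 3.79 FPKM in JOA libraries (adjusted p = 0.0272). IER3, an immediate early gene, was at 2.93, 8.87 and 8.82 FPKM in control and 4.17, 7.56 and 8.31 FPKM in JOA libraries (adjusted p = 0.0146). VEGFA, a growth factor for blood vessels, was at 8.59, 27.3 and 15.9 FPKM in control and 9.15, 20.2 and 15.2 FPKM in JOA libraries (adjusted p = 0.00537). The 3 that went the other way, highest under number 1 in that fit, were TNFSF10, TNIP2 and CARD9. In THP-1, 11 of 138 pathway genes passed (7.97%, against 3.26% of all genes), 5 of them lowest and 5 highest under number 1. Among the highest was PTX3, which encodes the secreted pattern receptor pentraxin 3. It was at 2.98, 1.36 and 1.08 FPKM in control and 3.34, 1.43 and 1.41 FPKM in JOA libraries (adjusted p = 0.00545).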

How the data were processed

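The labels give mRNA libraries of MOLM-13 and THP-1 cells, control or JOA, 3 per group. The authors deposited FPKM per gene and library; the submitters' processing notes name Trimmomatic, HISAT2, Cufflinks, HTSeq and the build hg38, with no versions. Read counts were not used here, so absolute depth is unknown, and relative depth was estimated from the spacing of low values. Of 20030 rows, 27 had names turned into dates and 4 a repeated name. Differential expression was tested with limma 3.58.1 (R 4.3.3) on log2(FPKM + 0.1) with a variance trend, over genes with a mean of at least 0.1 FPKM, and the method was tested on simulated data. Samples of one line entered the JOA comparisons, the 6 controls the line comparison and all 12 the interaction, called on adjusted p alone. Within a line, deviations of same-numbered control and JOA libraries correlated by 0.398, 0.264 and 0.303 (MOLM-13) and 0.282, 0.139 and 0.319 (THP-1), so the number was also fitted as a block. Members, lists and tests were chosen with earlier results of these data known. Named were the 10 members, pathway genes called in a JOA comparison, the 2 largest non-overlapping changes per list and line, and the 2 nearest genes per member; others named in the account of replicate number were chosen after their values were seen. Alternatives were other pseudocounts, filters, scalings, a constant variance, a replicate block and left-out libraries. No table column lacked a sample. A pathway gene that this rule names is not reported here.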

Additional observations from a re-analysis of the deposited data

Results flagged for a closer look

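TNF was flagged because its response to JOA had opposite signs in the 2 lines: JOA was lower than control in 3 of 3 same-numbered pairs of MOLM-13 (0.610, 0.856 and 0.941 times the control) and higher in 3 of 3 pairs of THP-1 (1.13, 1.20 and 1.18 times). The difference between the lines was 0.56 on the log2 scale, with an adjusted p of 0.797 by limma, or 0.143 with the replicate block, so it did not pass the threshold. The dose was 0.5 µM in MOLM-13 and 2 µM in THP-1, and line and dose cannot be told apart.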

How the results depend on the processing

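No member was called for JOA in MOLM-13 or for the interaction under any alternative, and in THP-1 only with the replicate block (1, CCL3, against 0). Estimates near 0 changed sign: CCL4 in MOLM-13 to 0.05 and its interaction to -0.01 (pseudocount 1), CCL2 in THP-1 to -0.11 (pseudocount 0.01) and -0.03 (TPM), and IL1RN and NFKBIA in THP-1 to -0.04 and -0.03 (upper quartile) and to -0.01 each (median of ratios). Leaving out libraries changed the sign of some estimates, and these moved in MOLM-13 over -0.93 to 0.81 for CCL2, -0.90 to 0.82 for CCL3, -0.92 to 1.09 for CCL4, -0.12 to 0.29 for CXCL8, -0.25 to 0.31 for IL1B, -0.05 to 0.17 for NFKBIA and -0.51 to 0.03 for TNFAIP3. In THP-1 the ranges were -0.93 to 0.69 for CCL2, -0.70 to 0.22 for CXCL8, -0.13 to 0.17 for IL1RN, -0.04 to 0.05 for NFKBIA and -0.26 to 0.01 for TNFAIP3. For the interaction they were -0.83 to 0.99 for CCL2, -0.20 to 1.51 for CCL3, -0.75 to 1.26 for CCL4, -0.64 to 0.04 for CXCL2, -0.75 to 0.17 for CXCL8, -0.03 to 0.52 for IL1B, -0.27 to 0.04 for IL1RN, -0.12 to 0.01 for NFKBIA and -0.15 to 0.40 for TNFAIP3. Without a change of sign, TNF ranged from -0.54 to -0.12 in MOLM-13, from 0.02 to 0.42 in THP-1 and from 0.34 to 0.76 for the interaction, IL1B in THP-1 from 0.10 to 0.39, CXCL2 from -0.84 to -0.18 in MOLM-13 and -1.08 to -0.65 in THP-1, CCL3 in THP-1 from 0.43 to 0.82 and IL1RN in MOLM-13 from 0.05 to 0.24. Between untreated lines 4 to 7 members were called (5 as reported), and no direction changed. The same-numbered controls of the lines correlated by 0.131, 0.078 and 0.07, and the differently numbered ones by -0.079 to 0.015. Whether the numbers pair the lines was not tested. A replicate block in this comparison called 7, adding CCL2 and IL1B. CCL3 missed the threshold with any value above 0 tested (adjusted p = 0.0655) or a constant variance (0.0578), CCL4 passed with pseudocount 0.01 (0.0382) or TPM (0.0487). The replicate number passed for 4 members in each line, for 0 in each with any value above 0 tested (0 of all genes called), for 1 and 0 with a constant variance, and for 2 in THP-1 with a mean of at least 1 FPKM. Without 1 library it passed for 2 to 5 members in MOLM-13 (2 without control 3 or JOA 3) and 3 to 5 in THP-1. The cause of these shifts was not tested. CXCL2, CCL4 and CCL2 rest on few fragments in many libraries, which limits what their values can show.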
